A study of Homo sapiens with 8 samples.

Results

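Tyrosine tRNA genes were taken from the deposited tRNA gene table as the rows whose amino acid column reads Tyr, leaving out rows whose name carries an nm prefix. This gave 17 of the 631 genes in the table. Of these, 16 have the anticodon GTA and 1, Tyr-ATA-1-1, has ATA. The table flags 14 of the 17 as intron-containing and 3 as intronless.

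The counts come from small RNA libraries made from HEK293T, an established line of human embryonic kidney origin. One group received a CRISPR/Cas9 plasmid without a guide strand and is labelled with 100% ADAT2 expression. The other received Cas9 with a guide against ADAT2, which gave a stable heterozygous line labelled with 50% ADAT2 expression and called the knockdown below. Each group has 2 libraries, numbered 3 and 4 in both groups, and each library was run on 2 lanes. The labels do not say whether separate cultures were used, and the p-values below therefore refer to library-to-library spread that could be purely technical. The contrast sets 1 edited line against 1 control line, so an effect of ADAT2 and any other difference of the edited line cannot be told apart. The libraries were size-selected to 160 to 220 base pairs.

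A tRNA carries an amino acid to the ribosome and reads the codon through its anticodon. Tyrosine tRNA reads the tyrosine codons with a guanosine at position 34, the wobble position, which in human cells is replaced by a queuosine derivative. ADAT2, with its partner ADAT3, turns adenosine at position 34 into inosine, so tRNAs with anticodon GTA are not its substrates. Human tyrosine tRNA genes are known for an intron just after the anticodon. The precursor is cut by the tRNA splicing endonuclease and its exons are joined by a ligase before the tRNA can be used. RNA polymerase III transcribes these genes from promoter elements inside the gene, the A box and the B box.

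The start of Tyr-GTA-5-3 on chromosome 14 is shown because it is the start of a well-counted member that the reference sequences hold. It was read from a RefSeq window that overlaps the gene (GRCh38.p14, chr14:20653172-20653232, minus strand). Lower case letters are the 40 bases before the gene, and capitals are its first 21 bases, which end before the anticodon and the intron.
Tyr-GTA-5-3: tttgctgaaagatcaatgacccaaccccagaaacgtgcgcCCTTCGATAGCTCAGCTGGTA
An A box match covers bases 8 to 19 of the gene, with no match on the other strand of this stretch. The A box was searched by its consensus on both strands. In the first 61 bases of each RefSeq window, 1.41% of 35116 windows hold a match. The match describes the letters and says nothing about use of the promoter.

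The members lie in a few places in the genome (hg38). Tyr-GTA-5-3, Tyr-GTA-4-1, Tyr-GTA-7-1, Tyr-GTA-5-4 and Tyr-GTA-5-5 lie within 30263 bases on chromosome 14 (20653099 to 20683361). Tyr-GTA-1-1, Tyr-GTA-8-1, Tyr-GTA-3-1 and Tyr-GTA-6-1 lie within 26105 bases on chromosome 6 (26568858 to 26594962). All 9 lie in no gene of the GENCODE annotation. On chromosome 8, Tyr-GTA-5-1 (66113367 to 66113459) and Tyr-GTA-5-2 (66113988 to 66114076) are 528 bases apart within the long noncoding RNA gene AC084082.1, on the same strand. Tyr-GTA-5-1 overlaps an exon of that gene, so reads from the 2 genes may not be told apart there. Tyr-GTA-2-1 lies on chromosome 2 (27050782 to 27050870) in an intron of AGBL5, a gene for a tubulin-trimming carboxypeptidase. RefSeq lists 13 members as tRNA genes, and Tyr-GTA-11-1 and Tyr-GTA-12-1 as pseudogenes. Tyr-GTA-9-1 and Tyr-GTA-10-1 matched no RefSeq symbol.

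Total counts per library ran from 698143 to 1211292 over all tRNA genes. The 17 tyrosine genes held 33057 (number 3) and 23187 (number 4) counts in the control group, against 50842 and 31438 in the knockdown group. ADAT2 itself is not in a table of tRNA genes, so the labelled knockdown and the cell type were not checked here.

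Among the 17 genes, 12 held nearly all the counts and 5 held almost none. The 12 had between 868 and 31866 counts over the 4 libraries, and the 5 had at most 21. The line of 100 counts between them was drawn after the values were seen. All 12 well-counted genes carry the intron flag and the anticodon GTA. Their deposited tRNA prediction score ran from 79.98 to 85.68, while the 5 sparse genes scored 24.21 to 65.26.

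**Figure D1:**
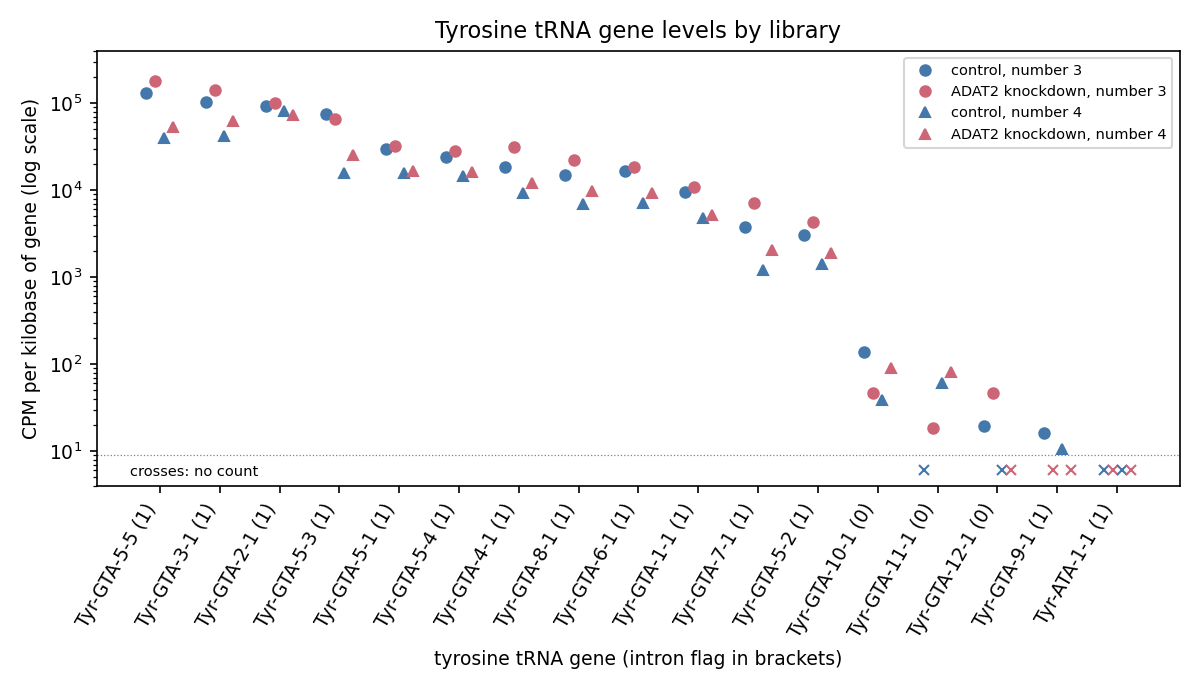
Level of each of the 17 tyrosine tRNA genes in the 4 libraries, in CPM per kilobase of gene on a log axis, with the intron flag in brackets. Circles are number 3 and triangles number 4 libraries, blue is control and red is knockdown, and crosses mark a gene without a count in that library. The 12 genes on the left stand at means of 2674 to 101417, and the 5 on the right at 0 to 78.2.

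Levels are compared between genes as CPM (counts scaled to 1000000 per library) per kilobase of gene, with the mean and SD over all 4 libraries. Tyr-GTA-5-5 had the highest mean level, 101417 ± 67013. Tyr-GTA-3-1 had 86999 ± 43850 and Tyr-GTA-2-1 86939 ± 11193, with overlapping spreads over the 4 libraries. The order of these 3 turned with the number: Tyr-GTA-5-5 was highest and Tyr-GTA-2-1 lowest of them in both number 3 libraries, and the reverse held in both number 4 libraries. In number 3, Tyr-GTA-5-5 had 131295 in control and 181595 in knockdown, and Tyr-GTA-2-1 had 92734 and 99089. In number 4, Tyr-GTA-5-5 had 39507 and 53272, and Tyr-GTA-2-1 had 82070 and 73865. Neither gene's level therefore stood above the other's in both numbers. They were followed by Tyr-GTA-5-3 at 45462 ± 29416, Tyr-GTA-5-1 at 23559 ± 8682 and Tyr-GTA-5-4 at 20701 ± 6316. Then came Tyr-GTA-4-1 at 17844 ± 9832, Tyr-GTA-8-1 at 13307 ± 6634 and Tyr-GTA-6-1 at 12842 ± 5536. Lowest of the 12 were Tyr-GTA-1-1 at 7603 ± 3079, Tyr-GTA-7-1 at 3540 ± 2607 and Tyr-GTA-5-2 at 2674 ± 1287. Over all 4 libraries, neighbours in this order differed by less than the larger of their SDs, except Tyr-GTA-2-1 over Tyr-GTA-5-3 and Tyr-GTA-1-1 over Tyr-GTA-7-1. These SDs include the gap between the numbers, which ran the same way in all 12 genes. They therefore do not show whether an order held within each library. The ends of the order differed by 37.9-fold. The median level of the 12 was 19273, against 6429 for the 440 other genes without the nm prefix that had 100 or more counts. The efficiency with which each tRNA was captured is unknown. Gene length here takes in any intron, which a spliced tRNA has lost. Whether reads across joined exons were counted was not checked. Levels of genes with and without an intron are therefore not directly comparable as amounts of mature tRNA.

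By the naming convention for tRNA genes, members with the same isodecoder number are copies of 1 mature sequence. The 5 copies numbered 5 all carry the same score of 83.00, yet their counts were far apart. In control library 3, Tyr-GTA-5-5 had 8158 counts, Tyr-GTA-5-3 4958, Tyr-GTA-5-1 1948, Tyr-GTA-5-4 1568 and Tyr-GTA-5-2 190. The highest copy stood 42.9-fold above the lowest in control library 3 and 42.1-fold in knockdown library 3. In number 4 the same ratio was 27.7 in control and 28.0 in knockdown. This ratio, of Tyr-GTA-5-5 to Tyr-GTA-5-2, was therefore nearly the same in both groups within a number and differed between the numbers. Other copies did not all keep step. In number 3, Tyr-GTA-5-5 had 8158 counts in control and 14203 in knockdown, and Tyr-GTA-5-3 had 4958 and 5397. In number 4, Tyr-GTA-5-5 had 3762 and 5743, and Tyr-GTA-5-3 had 1569 and 2888. Gene length also differs among them: Tyr-GTA-5-2 and Tyr-GTA-5-5 span 89 bases, Tyr-GTA-5-1 93, and Tyr-GTA-5-3 and Tyr-GTA-5-4 94. The assignment of reads matching several copies is not stated, so the split among copies is uncertain.

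The intron flag and the score were then compared. The 14 intron-flagged members span 88 to 94 bases, which is 15 to 21 bases longer than the 73 bases of the longest intronless members. Together the 3 intronless members had 8 (number 3) and 7 (number 4) counts in the control group and 7 and 14 in the knockdown group. Their share of tyrosine tRNA counts was 0.0242% (95% exact interval 0.0104 to 0.0477) in control library 3 and 0.0138% (0.00554 to 0.0284) in knockdown library 3. In number 4 it was 0.0302% (0.0121 to 0.0622) and 0.0445% (0.0243 to 0.0747). The share was lower in knockdown in number 3 and higher in number 4. The intervals overlap within each number, but overlap is not a test of the difference. Each interval is built from the counts of a single library and so covers counting error alone. No molecular identifiers were counted, so the intervals may be too narrow even for that.

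Among the intronless genes, Tyr-GTA-10-1 on chromosome 7 (149558042 to 149558114, within the pseudogene ZNF767P on the opposite strand) scored 49.38. In numbers 3 and 4 it had 7 and 3 counts in control and 3 and 8 in knockdown. Tyr-GTA-11-1, also on chromosome 7 (149356664 to 149356724), scored 31.31 and had 0 and 4 counts in controls 3 and 4, and 1 and 6 in knockdown. Tyr-GTA-12-1 on chromosome 15 (91711072 to 91711144) had the lowest score, 24.21, with 1 and 0 counts in controls 3 and 4, and 3 and 0 in knockdown. All 3 overlapped between the groups.

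The intron flag alone did not separate well-counted from sparse genes, because 2 intron-flagged members were nearly or wholly without counts. Tyr-GTA-9-1 on chromosome 8 (65697297 to 65697384, within MTFR1 on the opposite strand) scored 58.14 and had 1 count in each control library and 0 in each knockdown library, below the floor of 3 counts in all of them. Tyr-ATA-1-1 on chromosome 2 (218245826 to 218245918, in an intron of ARPC2) scored 65.26 and had no count in any library. It is the only member whose genomic anticodon starts with A, the base that ADAT2 can edit in other tRNAs. The limit that a count of 0 allows, 3 counts, corresponds to 4.30 CPM in control and 3.41 CPM in knockdown for number 3, and to 2.80 and 2.48 CPM for number 4.

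Across the 17 members the score and the mean level had a Spearman rho of 0.732, and across the 12 well-counted members 0.334. Both are descriptions across genes, which share their libraries and in part their sequence. The 590 other genes without the nm prefix gave 0.570. Of the 124 such genes that scored at least as high as the lowest well-counted tyrosine gene, 97.6% had 100 or more counts. Of the 229 that scored no higher than Tyr-ATA-1-1, 40.2% did.

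**Figure D2:**
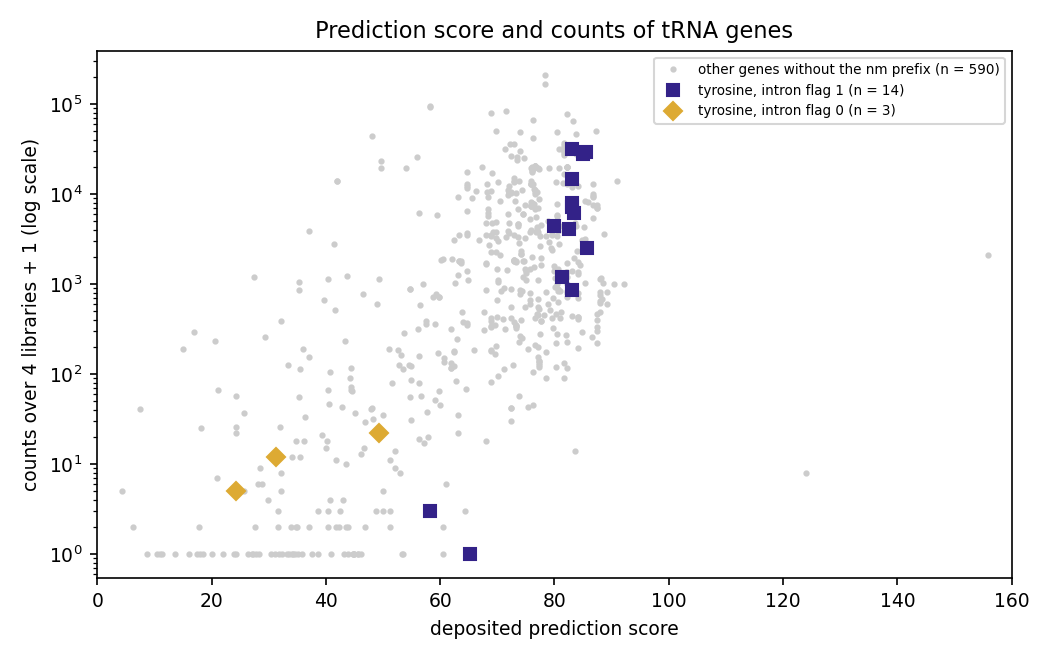
Deposited prediction score of each gene without the nm prefix against its counts summed over the 4 libraries, plus 1, on a log axis. Tyrosine genes are squares (intron flag 1, n = 14) and diamonds (intron flag 0, n = 3), and grey dots are the 590 other genes. The 12 tyrosine genes scoring 79.98 or more have at least 868 counts, and the 5 scoring 65.26 or less have at most 21.

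Introns are more common in tyrosine tRNA genes than elsewhere in the table. They were flagged in 82.4% of the tyrosine members and in 3.39% of the 590 other genes without the nm prefix. Of the 20 intron-flagged genes outside tyrosine, 5 are Ile-TAT, 5 Leu-CAA and 5 Arg-TCT. Without the nm prefix the table holds 5 Ile-TAT genes, all flagged, 7 Arg-TCT genes and 12 Leu-CAA genes. The 5 Leu-CAA genes with an intron had a median of 8630 CPM per kilobase, and the 7 without one had a median of 14.7. For Arg-TCT the medians were 7929 for 5 genes with an intron and 67.7 for 2 without. Among tyrosine members the medians were 15576 for the 14 genes with an intron, which ran from 0 to 101417, and 40.3 for the 3 without, which ran from 16.6 to 78.2, so the ranges overlap. Leu-CAA genes with an intron scored 77.18 to 80.09 and those without one 10.91 to 60.99. Tyrosine members scored 58.14 to 85.68 with an intron and 24.21 to 49.38 without. In both sets flag and score therefore cannot be told apart in a comparison by flag. In Arg-TCT the scores were not separated, since 1 of the genes without an intron scored 76.29, within the 72.79 to 80.27 of those with one. Genes are not replicates, and no test was made between them. The limits on comparing levels with and without an intron, given above, hold here too.

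The groups were compared next. None of the 12 tested tyrosine genes passed between knockdown and control by edgeR (quasi-likelihood, Benjamini-Hochberg adjusted), against 0% of all 489 tested genes. At an unadjusted p under 0.05 the test gave 0 members and 1 gene in all, and DESeq2 called 0 of 574 genes. The edgeR model had no term for the number, so its SEs include the spread between the numbers. Calls of some members depended on this, as the last section shows. Log2 fold changes of the members ran from −0.05 to 0.90, with SEs of 0.80 to 1.19 (n = 2 per group) and an edgeR adjusted p of 0.998 for each. Their median was 0.32, against −0.03 over all genes tested. The other 5 members did not pass the edgeR filter on low counts. DESeq2 tested those of them that had a count and called none.

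The tyrosine share of all counts in number 3 was 4.73% for control (95% Wilson interval 4.69 to 4.79) and 5.79% for knockdown (5.74 to 5.83). For number 4 the shares were 2.17% (2.14 to 2.19) and 2.60% (2.57 to 2.62). These intervals also cover counting error within a library alone. The knockdown library was thus higher by 1.05 percentage points in number 3 and by 0.43 in number 4. The group means were 3.45 ± 1.82% and 4.19 ± 2.26% (SD, n = 2), a difference smaller than either SD. These SDs include the gap between numbers 3 and 4, which went the same way in both groups. Without knockdown library 3 the difference turned to −0.856 percentage points, and without control library 4 to −0.545. Without control library 3 it was 2.02, and without knockdown library 4 it was 2.33. Any such omission leaves a group with a single number, so the difference then also takes in the gap between the numbers. With 2 against 2 libraries an exact permutation test cannot go below 0.33. As the summed Tyr-GTA family the log2 fold change was 0.27 ± 1.02 (SE; edgeR adjusted p = 0.994 over 52 families), against a median of 0.18 over all families. Without knockdown library 3 it was −0.81, and without control library 4 −0.35, with the same mixing of group and number.

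Within a number, 10 of the 12 genes had a higher share of all counts in knockdown than in control in both numbers, and none a lower share in both. The same held for 38.4% of all tested genes, and a lower share in both for 25.4%. With TMM scaling, edgeR's correction for differences in library make-up, 7 members were higher in both numbers (27.2% of all tested genes) and none lower in both (34.4%). In CPM, none of the 12 had both knockdown libraries above both controls, which held for 8.18% of tested genes. The choice of scaling moved the median ratio of all genes in number 4 from 0.18 with library totals to −0.09 with TMM, on the log2 scale. In number 3 it moved from −0.04 to 0.03. Directions in number 4 are therefore given below with both scalings where they differ.

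**Figure D3:**
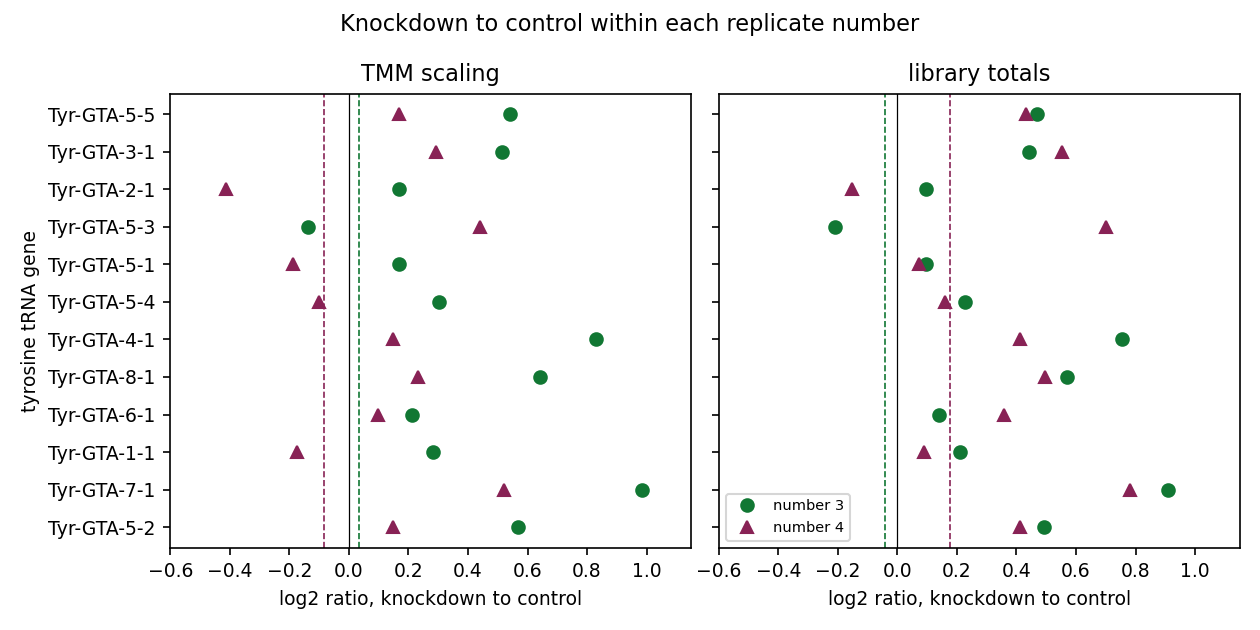
Log2 ratio of knockdown to control for the 12 tested tyrosine genes, within number 3 (circles) and number 4 (triangles), with TMM scaling on the left and library totals on the right. Each point is 1 library over 1 library and has no error of its own, and dashed lines are the medians of all 489 tested genes. Tyr-GTA-7-1 lies farthest to the right in number 3, at 0.98 and 0.91.

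Tyr-GTA-7-1, Tyr-GTA-4-1 and Tyr-GTA-5-2 had the smallest unadjusted p among the members. Tyr-GTA-7-1 had 248 (number 3) and 121 (number 4) counts in control, and 587 and 236 in knockdown. Both knockdown libraries stood above the control of their number, while the groups overlapped in CPM because control library 3 was above knockdown library 4. Its TMM-scaled log2 ratios were 0.98 and 0.52 in numbers 3 and 4. The log2 fold change over all libraries, in the model without the number, was 0.90 ± 1.00 (SE; edgeR adjusted p = 0.998). The call depended on the model, and fits that include the number are given in the last section. Tyr-GTA-4-1 had 1219 and 925 counts in the controls and 2592 and 1392 in knockdown, with log2 ratios of 0.83 and 0.15. Tyr-GTA-5-2 had 190 and 136 against 337 and 205, with ratios of 0.57 and 0.15. All 3 were higher in knockdown within both numbers under both scalings.

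The most abundant genes differed in their pattern. Tyr-GTA-5-5 had 8158 and 3762 counts in the controls and 14203 and 5743 in knockdown, with TMM-scaled log2 ratios of 0.54 and 0.17 in numbers 3 and 4. For Tyr-GTA-3-1 the counts were 6428 and 4015 in the controls and 10986 and 6675 in knockdown, with ratios of 0.51 and 0.29. Tyr-GTA-2-1 had 5762 and 7815 in the controls and 7750 and 7963 in knockdown. Its ratios were 0.17 in number 3 and −0.41 in number 4, or 0.10 and −0.15 with library totals. Tyr-GTA-5-5 and Tyr-GTA-3-1 were thus higher in knockdown within both numbers, and Tyr-GTA-2-1 changed direction between them. Tyr-GTA-5-3 had 4958 and 1569 counts in the controls and 5397 and 2888 in knockdown, with ratios of −0.14 and 0.44, opposite in direction to Tyr-GTA-2-1 in both numbers.

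The remaining genes of the 12 lay between these. Tyr-GTA-8-1 had 929 and 659 counts in the controls and 1736 and 1052 in knockdown, with TMM-scaled ratios of 0.64 and 0.23. Tyr-GTA-6-1 had 1038 and 679 against 1438 and 986, with ratios of 0.21 and 0.10. Both were higher in knockdown within both numbers. Tyr-GTA-5-1 had 1948 and 1559 against 2621 and 1858, with ratios of 0.17 and −0.19. The counts of Tyr-GTA-5-4 were 1568 and 1468 against 2312 and 1859, with ratios of 0.30 and −0.10. Tyr-GTA-1-1, which has the highest score of all members, 85.68, had 602 and 471 against 876 and 567, with ratios of 0.28 and −0.17. These 3 were below 0 in number 4 with TMM and above 0 with library totals.

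Shares within the tyrosine counts need no scaling between libraries. Of the tyrosine counts, Tyr-GTA-2-1 made up 17.4% in control and 15.2% in knockdown of number 3, and 33.7% and 25.3% in number 4. Its share was lower in knockdown within both numbers, and about as large a part of the counts as the whole chromosome 14 cluster in control library 4, where that cluster held 33.8%. In control library 3 the cluster held 48.9%, in knockdown library 3 49.4% and in knockdown library 4 38.5%. The 4 genes on chromosome 6 held 27.2% and 25.1% in the controls and 29.6% and 29.5% in knockdown. Of the 12 genes, 6 had a higher share in knockdown within both numbers, 4 a lower share in both, and 2, Tyr-GTA-5-3 and Tyr-GTA-6-1, moved in opposite directions. Tyr-GTA-5-3 held 6.77% in control and 9.19% in knockdown of number 4, and a lower share in knockdown, 10.6%, than in control of number 3. The 3 top genes together held 61.6% and 67.2% in the controls and 64.8% in each knockdown library.

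**Figure D4:**
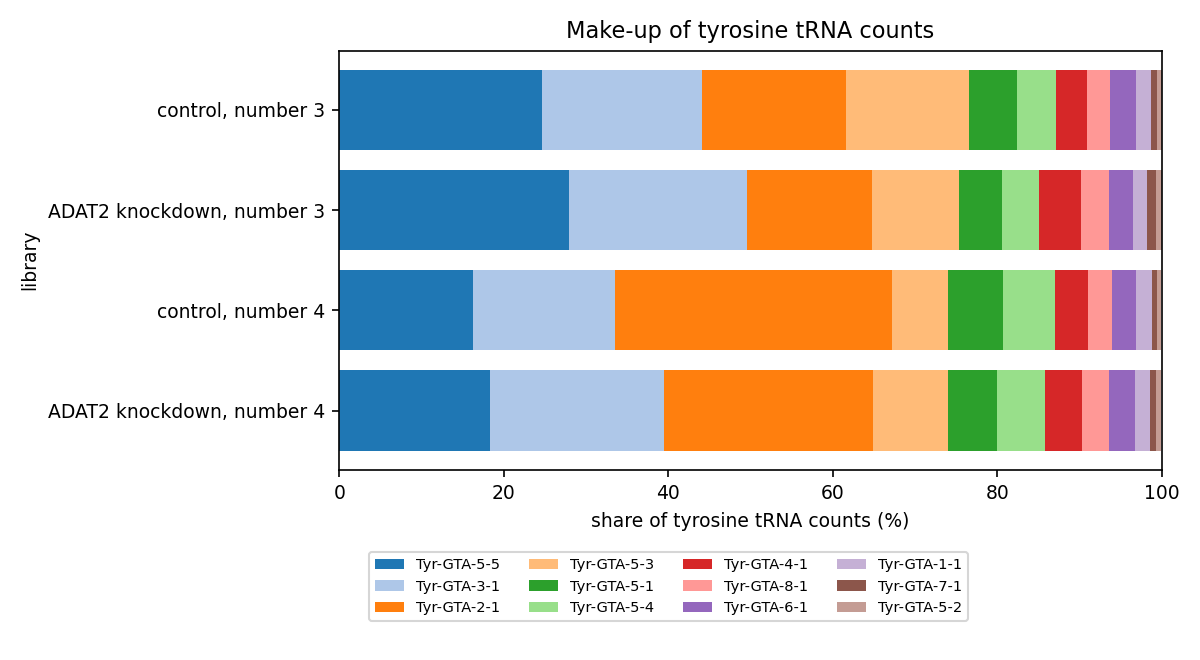
Share of tyrosine tRNA counts held by each of the 12 well-counted genes, 1 bar per library, in percent. Tyr-GTA-2-1 (orange) widens from 17.4% and 15.2% in number 3 to 33.7% and 25.3% in number 4.

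The replicate number separated the tyrosine genes more than the group did. All 12 tested members were lower in number 4 than in number 3 by edgeR in a model that also holds the group, with a highest adjusted p of 0.0145. Of all 489 tested genes, 77.7% passed in this contrast, 40.3% higher and 37.4% lower, so a call by itself is common here. The members' log2 fold changes ran from −2.25 to −0.73 with a median of −1.58, against 0.01 over all tested genes. Both number 4 libraries lay below both number 3 libraries in CPM for each of the 12, which held for 30.3% of tested genes. With library totals in place of TMM the members ran from −1.82 to −0.30 while the median of all genes moved to 0.44, and all 12 passed again. What the number stands for is not given in the labels.

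Tyr-GTA-5-3 fell by 2.25 ± 0.26 on the log2 scale between the numbers (SE, 2 libraries per number; edgeR), Tyr-GTA-5-5 fell by 2.18 ± 0.31 and Tyr-GTA-7-1 fell by 2.16 ± 0.20. These 3 lie in the chromosome 14 cluster, as do Tyr-GTA-4-1, which fell by 1.62 ± 0.22, and Tyr-GTA-5-4, which fell by 1.18 ± 0.22. The chromosome 6 genes were close together, with Tyr-GTA-3-1 at −1.67 ± 0.29, Tyr-GTA-8-1 at −1.58 ± 0.20, Tyr-GTA-6-1 at −1.55 ± 0.20 and Tyr-GTA-1-1 at −1.46 ± 0.19. On chromosome 8, Tyr-GTA-5-2 fell by 1.58 ± 0.20 and Tyr-GTA-5-1 fell by 1.38 ± 0.22. Tyr-GTA-2-1 on chromosome 2 fell by 0.73 ± 0.28, the least of the 12. Whether these falls differ from gene to gene was not tested.

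**Figure D5:**
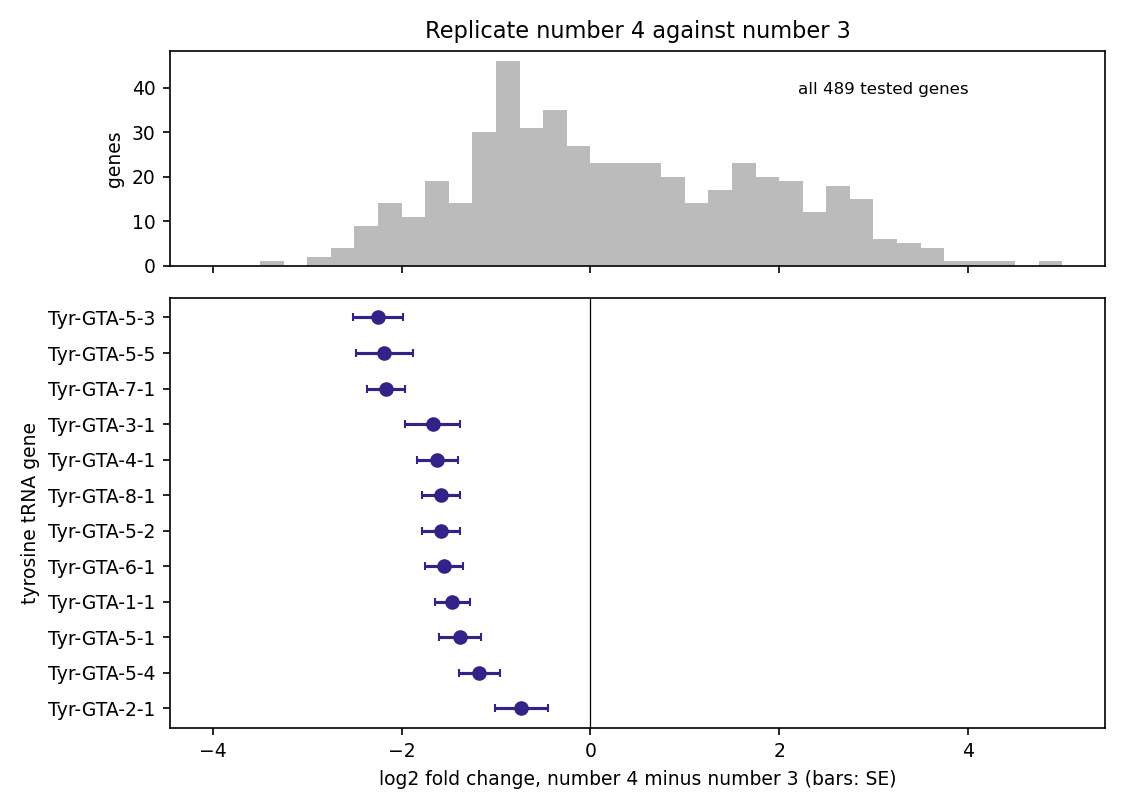
Log2 fold change of number 4 against number 3, with the group as a second term. The upper panel is a histogram of all 489 tested genes, and the lower panel shows the 12 tyrosine genes with their SE, all below 0 between −2.25 and −0.73.

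Other intron-flagged genes and other tRNAs that carry queuosine were set beside the tyrosine genes. The log2 ratio of tyrosine counts to counts of the 20 other intron-flagged genes was 2.44 and 2.42 in control and knockdown libraries 3, and −0.12 and 0.06 in libraries 4. It moved with the number in both groups and differed between the groups by 0.08 on average, with SDs of 1.81 and 1.67 (n = 2). Between the numbers, 7 of the 17 tested other intron-flagged genes were called higher in number 4 and 5 lower, with a median log2 fold change of 0.13. Of all tested genes, 40.3% were called higher and 37.4% lower. The other queuosine anticodons split by amino acid. Of the 25 tested Asn-GTT genes, 20 were called lower and 2 higher in number 4, while of 15 Asp-GTC genes 13 were higher and 1 lower, and of 10 His-GTG genes 8 were higher and none lower. Between knockdown and control none of the tested genes of these lists passed.

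The tyrosine rows with the nm prefix, which are no members, moved the other way. They number 20 and took 0.476% and 0.400% of counts in control and knockdown libraries 3 and 4.46% and 3.79% in libraries 4. All 4 of those tested were called higher in number 4, as were 40.3% of all tested genes.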

How the data were processed

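The deposited values are whole-number read counts per tRNA gene, 1 column per library code, made by the authors from 8 samples that are 4 libraries with 2 lanes each. The submitters' processing notes list Bowtie2 2.2.2 with builds hg38 and GRCh38, and summarizeOverlaps appears in the labels. Nothing states how strand, lanes or reads with several matches were handled. Per the file headers, the table also gives a score, an intron flag, a mismatch number, coordinates and a width for each gene, all used unchanged. The score is the same in both of its columns.

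For the tests, edgeR 4.0.16 (R 4.3.3) was run on the deposited counts of all genes kept by filterByExpr (minimum count 10), with TMM factors, the quasi-likelihood test and Benjamini-Hochberg adjustment (threshold 0.05). An SE is the log2 fold change divided by the root of F. Families are sums per amino acid and anticodon, with nm rows kept apart. Ratios within a number add 0.5 to each count. Alternatives were DESeq2 1.42.0, other scalings, no filter, a replicate block and leaving out each library. Single shares carry Wilson or exact binomial intervals (scipy 1.17.1). Sequence is from RefSeq (GRCh38.p14). Of the 17 members, 15 matched a RefSeq symbol, 14 of them at both ends.

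Members, lists and the rule for named genes were chosen with earlier results of these data known. Named with every library were the 6 highest members, intronless members, those of another anticodon, of extreme score, at 0 in a library, called in any fit, and the 3 with the smallest p.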

Additional observations from a re-analysis of the deposited data

How the results depend on the processing

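Without 1 library in turn, the difference between knockdown and control ran from −0.856 to 2.33 percentage points for the tyrosine share of counts (0.739 with all libraries) and from −0.0173 to 0.0134 for the intron-flagged share of tyrosine counts (−0.00196). It ran from −1.20 to 1.36 for the log2 ratio to other intron-flagged genes (0.08) and from −0.81 to 1.32 for the Tyr-GTA family (0.27). As log2 fold changes of single genes it ran from −1.31 to 1.71 for Tyr-GTA-5-3, −1.13 to 1.77 for Tyr-GTA-5-5, −0.70 to 2.13 for Tyr-GTA-7-1, −0.66 to 1.43 for Tyr-GTA-3-1, −0.60 to 1.42 for Tyr-GTA-4-1 and −0.58 to 1.37 for Tyr-GTA-8-1. For the others it ran from −0.65 to 1.28 for Tyr-GTA-5-2, −0.80 to 1.10 for Tyr-GTA-6-1, −0.89 to 0.89 for Tyr-GTA-1-1, −0.88 to 0.78 for Tyr-GTA-5-1, −0.63 to 0.74 for Tyr-GTA-5-4 and −0.61 to 0.37 for Tyr-GTA-2-1. In these fits a lone library is assumed to vary like the other group. Its group then holds a single number, so these ranges also take in the gap between the numbers. With nm rows added to the tyrosine rows, the intron-flagged share differed by 5.31 points and the log2 ratio by −0.094, while the tyrosine share differed by 0.365 points and the family by 0.13. Without Tyr-GTA-5-5 the share differed by 0.454 points and the log2 ratio by 0.03. Tyr-GTA-5-3, near 0 in edgeR, was 0.014 with DESeq2 and 0.031 without the filter on low counts. Tyr-GTA-2-1 was 0.0059 with DESeq2 size factors, 0.016 with DESeq2 and 0.011 without the filter. With the replicate number as a block, 1 of the 12 passed, Tyr-GTA-7-1 (log2 fold change 0.77, edgeR adjusted p = 0.00416), against 7.98% of all genes. Further fits with the block were added after the data were seen. With library totals 5 passed (15.5% of all genes), namely Tyr-GTA-7-1, Tyr-GTA-5-5, Tyr-GTA-3-1, Tyr-GTA-4-1 and Tyr-GTA-8-1. With DESeq2 size factors 3 passed (12.5%), namely Tyr-GTA-7-1, Tyr-GTA-4-1 and Tyr-GTA-8-1. In DESeq2 2 passed (12.5% of the 296 genes with an adjusted p), namely Tyr-GTA-7-1 and Tyr-GTA-3-1. All of these were higher in knockdown. Under the block Tyr-GTA-5-3 was 0.15, and 0.24, 0.22 and 0.23 in those further fits, and Tyr-GTA-5-1 was −0.0082. The block gave 0.33 for the family (adjusted p = 0.360); in this balanced layout it cannot change the differences in shares or in the log2 ratio (0.739, −0.00196 and 0.08). Libraries of the same number deviated together (correlation 0.935 over 489 genes), but with 2 pairs they share only a number. All 12 genes passed as lower in number 4 under each of the 4 other scalings, filters and tools, and leaving out a library was not run there because no residual degrees of freedom remain. The causes of these changes were not tested. The 5 sparse genes did not pass the edgeR filter on low counts. Without that filter, and in DESeq2, none of them was called between knockdown and control.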
